A study of Mus musculus with 18 samples.

Results

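The genes of retinoid (vitamin A) transport and metabolism followed here in mouse liver were Rbp4, Ttr, Lrat, Retsat, Rdh11, Dhrs3, Aldh1a1, Aldh1a7 and Cyp26a1. They were named by gene symbol for their roles, with earlier results of these data already known. All 9 of 9 were present among the 19057 genes of the deposited table, and all 9 passed the filter of a mean of at least 1 RPKM (reads scaled to gene length and library size) that left 10204 genes for testing. The livers came from ICR mice aged 10 weeks, in 6 groups of 3 RNA-seq libraries. Con mice were untreated controls and A10 mice received alginate oligosaccharide (AOS) at 10 mg/kg. HS mice received a high-fat diet and streptozotocin (STZ), a toxin of insulin-producing cells that is used to model type 2 diabetes, and HS+A10 mice received diet, STZ and AOS at 10 mg/kg. A10-FMT and Con-FMT mice received diet and STZ too, followed by intestinal microbiota from AOS-dosed or from control donors. According to the study's methods the Con, HS and transplant groups were male, Con mice were kept on a regular diet with saline, and the inocula were pooled donor contents, so that the recipients of a group shared a donor pool. The A10 and HS+A10 groups are known from the sample labels alone. All 4 groups with diet shared both the diet and STZ, so that these cannot be told apart.

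Liver is the main store of vitamin A. Retinol is esterified by lecithin retinol acyltransferase (LRAT), stored largely in stellate cells, and released into blood bound to retinol-binding protein (RBP4), which travels with transthyretin (TTR). Within cells, short-chain dehydrogenases interconvert retinol and retinal, aldehyde dehydrogenases oxidise retinal to retinoic acid, the ligand of the nuclear receptors RAR, and CYP26 enzymes break retinoic acid down. Cyp26a1 is a classical target gene that retinoic acid induces.

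A few libraries stood apart. Con replicate 3 lay between replicates 1 and 2 in 95.45% of the 858 genes that differed between those by at least 0.5 on the log2 scale, and A10 replicate 3 did so in 94.11% of 577, against 24% to 73% for the other 16 libraries. Con-FMT replicate 3 had a summed level of 22979.3 RPKM of 12 pancreatic acinar cell markers, while no other library exceeded 50.41. Where a comparison includes one of these libraries, the calls that ended without it are named beside the results. All 8 hepatocyte markers were detected in every group, with summed levels between 57958 and 93961 RPKM. The summed level of 5 adipocyte markers was 1.53 to 2.85 RPKM in HS+A10 and 14.72 RPKM in Con-FMT replicate 3. Every other library had at most 0.76 RPKM, and the part of adipocytes in the changes was not tested. The number of reads per library is unknown, so that no counting interval was computed. The median gene was 0.14 higher on the log2 scale in HS than in Con and 0.16 lower in A10-FMT than in HS. The calls over all genes moved with the scaling, 89.4% of them being higher in HS than in Con as deposited and 45% after the library medians had been made equal.

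Several of the genes lie on chromosome 19 of the GRCm38 annotation (the mm10 build of the labels). These are Aldh1a1 (chr19:20492715-20643465, plus strand), Aldh1a7 (chr19:20692953-20727562, minus strand), Cyp26a1 (chr19:37697798-37701536, plus strand) and Rbp4 (chr19:38116629-38125281, minus strand). Aldh1a1 and Aldh1a7 are neighbours, 49487 bases apart with no protein-coding gene between them, and 3 protein-coding genes separate Cyp26a1 from Rbp4. Lrat lies at chr3:82892579-82903973 (minus strand), Dhrs3 at chr4:144892827-144928209 (plus strand), Retsat at chr6:72598475-72608425 (plus strand) and Rdh11 at chr12:79174337-79192293 (minus strand). Retsat shares exon sequence with Gm45053, an unconfirmed model on the opposite strand, and reads of the pair cannot be told apart where counting ignored strand.

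Aldh1a1 and Aldh1a7 are paralogs, and their sequences are shown because their levels moved apart in these livers. Over 1503 coding bases they were 91.62% identical. The first 120 coding bases (GENCODE transcripts) differed at 10 positions, which are in capitals:
Aldh1a1: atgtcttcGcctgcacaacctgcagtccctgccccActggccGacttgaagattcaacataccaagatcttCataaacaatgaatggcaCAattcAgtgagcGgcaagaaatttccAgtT
Aldh1a7: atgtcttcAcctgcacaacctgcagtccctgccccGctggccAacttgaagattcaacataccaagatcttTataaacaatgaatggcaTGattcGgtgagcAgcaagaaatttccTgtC
The likeness went beyond the coding sequence. In RefSeq's promoter windows (GRCm38.p6), the 100 bases before the downstream start of Aldh1a1 (chr19:20601868-20601967, plus strand) and before the start of Aldh1a7 (chr19:20727557-20727656, minus strand) were identical at 94 positions, with the differing bases in capitals:
Aldh1a1: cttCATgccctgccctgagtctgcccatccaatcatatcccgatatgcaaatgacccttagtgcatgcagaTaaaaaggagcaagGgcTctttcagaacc
Aldh1a7: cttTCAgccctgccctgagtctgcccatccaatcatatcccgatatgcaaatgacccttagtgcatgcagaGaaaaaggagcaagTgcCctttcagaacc
Of all stretches of 50 bases, 25.4% of the Aldh1a1 transcript and 29.1% of the Aldh1a7 transcript occurred in the other with at most 2 mismatches (7.39% and 8.49% of stretches of 100 bases). Short reads from such stretches could have been counted for either gene.

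The Cyp26a1 promoter is shown because its gene had the largest fall among the 9. The 150 bases before its start (RefSeq, GRCm38.p6, chr19:37697658-37697807, plus strand) hold a direct repeat of AGTTCA with a spacing of 5 bases on the minus strand, the arrangement that RAR is known to bind, here in capitals as it reads on the plus strand:
Cyp26a1: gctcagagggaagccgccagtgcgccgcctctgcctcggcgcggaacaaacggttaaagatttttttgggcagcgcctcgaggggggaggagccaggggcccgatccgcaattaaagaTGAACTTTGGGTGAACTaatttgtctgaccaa
A direct repeat of AGTTCA or AGGTCA with this spacing, searched on both strands, occurred in 13 of 32851 promoter windows (0.0396%), which span 250 bases before to 50 after a start. The windows of 8 of the 9 genes were in the table (13 windows), and Cyp26a1 was the only gene among them with the repeat. AGTTCA or AGGTCA, alone or within a repeat, was found in windows of Retsat, Rdh11 and Cyp26a1, and in 27.7% of all windows. In Cyp26a1 the matches were those of the repeat itself. Letters that are absent from these windows say nothing about sites elsewhere.

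The effect of diet and STZ was measured in a pair of comparisons without a shared library, HS against Con and, under AOS dosing, HS+A10 against A10. The 9 genes moved in both directions. In HS, Rbp4 and Retsat rose and Ttr, Rdh11, Aldh1a7 and Cyp26a1 fell, 6 of 9 genes at an adjusted p under 0.05, where 17.7% of all tested genes were called. In HS+A10 against A10, Lrat, Retsat and Aldh1a1 rose and Ttr, Rdh11, Aldh1a7 and Cyp26a1 fell, 7 of 9 genes, where 20.9% of all tested genes were called. The 5 genes called in both comparisons (Ttr, Retsat, Rdh11, Aldh1a7 and Cyp26a1) had the same direction in both. The median log2 change of the 9 genes was 0.01 in the first comparison (0.14 over all tested genes) and -0.13 in the second (0.04), the rises and falls offsetting each other. A permutation test of 3 libraries against 3 cannot go below p = 0.1 for a single gene, and the exact two-sided test gave this value for each gene whose groups did not overlap. Nothing in the labels says that libraries came from separate animals, and p-values then measure only the spread between libraries.

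**Figure D1:**
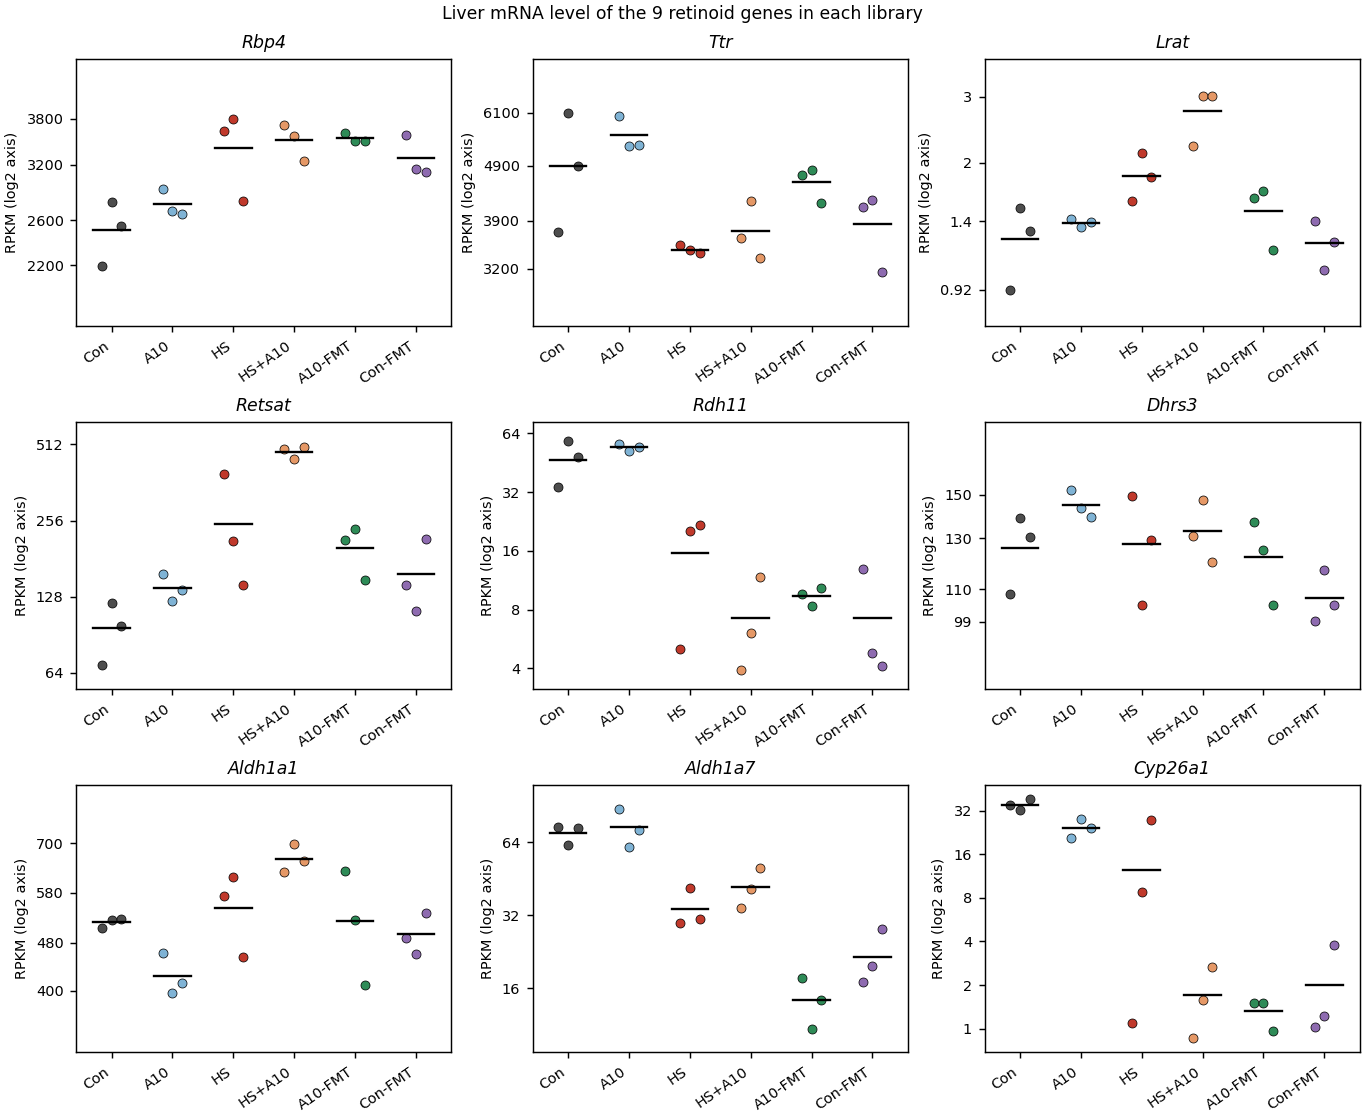
RPKM of each of the 9 genes (vertical axes, log2) in the 18 libraries, by group (horizontal axes); each point is a library and each bar the mean of 3. Rdh11 and Aldh1a7 lie lower in all 12 libraries with diet and STZ than in all 6 without, while Dhrs3 overlaps between neighbouring groups throughout.

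Rbp4, the plasma carrier of retinol, was among the more abundant liver mRNAs. Its level was 2192, 2782 and 2542 RPKM in the Con libraries and 3629.9, 3793 and 2799.9 RPKM in HS. All HS libraries were above all Con libraries, but HS replicate 3 only just exceeded the highest Con library. The log2 change was 0.44 ± 0.12 (SE), with an adjusted p of 0.0208. The call was lost in 8 of 27 alternative settings, among them those without Con replicate 1 (0.091), Con replicate 3 (0.0535), HS replicate 1 (0.0599) or HS replicate 2 (0.0875), that without replicate 3 of both Con and A10 (0.0739), and that with equal library medians, where the log2 change was 0.25 (adjusted p = 0.172). Under AOS, Rbp4 measured 2924, 2694 and 2668 RPKM in A10 and 3706, 3567 and 3247 RPKM in HS+A10. These groups did not overlap either, and the log2 change was 0.34 ± 0.12 with an adjusted p of 0.0504. The recipients were at 3596, 3497 and 3489.8 RPKM in A10-FMT and at 3574, 3148 and 3109 RPKM in Con-FMT. In the order of group means (A10-FMT, HS+A10, HS, Con-FMT, A10, Con), neighbours separated without overlap only between Con-FMT and A10. The means of all 4 groups with diet were thus above the others, although HS replicate 3 was below A10 replicate 1. The study reported RBP4 protein in liver, by immunofluorescence staining, as lower in HS and higher after A10-FMT. Protein and mRNA are different measures. The log2 change of Rbp4 mRNA in A10-FMT against HS was 0.06 (adjusted p = 0.719).

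Ttr encodes the partner protein that holds RBP4 in plasma, and it moved the other way. It measured 3721, 6090 and 4897 RPKM in Con and 3527, 3455 and 3412 RPKM in HS, the HS libraries being close together and below the Con libraries. The log2 change of -0.47 ± 0.16 was at the threshold (adjusted p = 0.0495), and it was no longer called in 20 of 27 alternative settings (adjusted p between 0.0124 and 0.595 over all of them). Leaving out 1 library ended the call for 15 of the 18 libraries, with adjusted p between 0.0515 and 0.169 (0.116 without Con replicate 3), and it was 0.143 without replicate 3 of both Con and A10. Under AOS, A10 libraries had 6015, 5321 and 5346 RPKM and HS+A10 libraries 3634, 4240.5 and 3342 RPKM. Here the groups were well apart, with a log2 change of -0.58 ± 0.16 (adjusted p = 0.0173). This call was lost in 6 of 27 settings, among them quantile normalization (log2 change -0.34, adjusted p = 0.321), without A10 replicate 1 (0.0609), HS+A10 replicate 1 (0.0559) or HS+A10 replicate 3 (0.0672), and without replicate 3 of both Con and A10 (0.0572). A10-FMT recipients had 4723, 4815 and 4195 RPKM, above every HS library, and Con-FMT recipients 4132, 4253 and 3156 RPKM.

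The ratio of the carrier Rbp4 to its partner Ttr within each library separated the groups with diet and STZ from those without. Rbp4 was at 0.457 to 0.589 of the level of Ttr in Con and at 0.486 to 0.506 in A10. It reached 0.821 to 1.10 in HS and 0.841 to 1.02 in HS+A10. Con-FMT libraries ranged from 0.740 to 0.985, A10-FMT libraries from 0.726 to 0.832. The 12 libraries with diet and STZ were all above the 6 without, and no test was made of the ratio, which uses the same values as the fits above. A ratio within a library does not depend on a factor applied to the whole library, such as equal medians, but quantile normalization can change it.

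**Figure D2:**
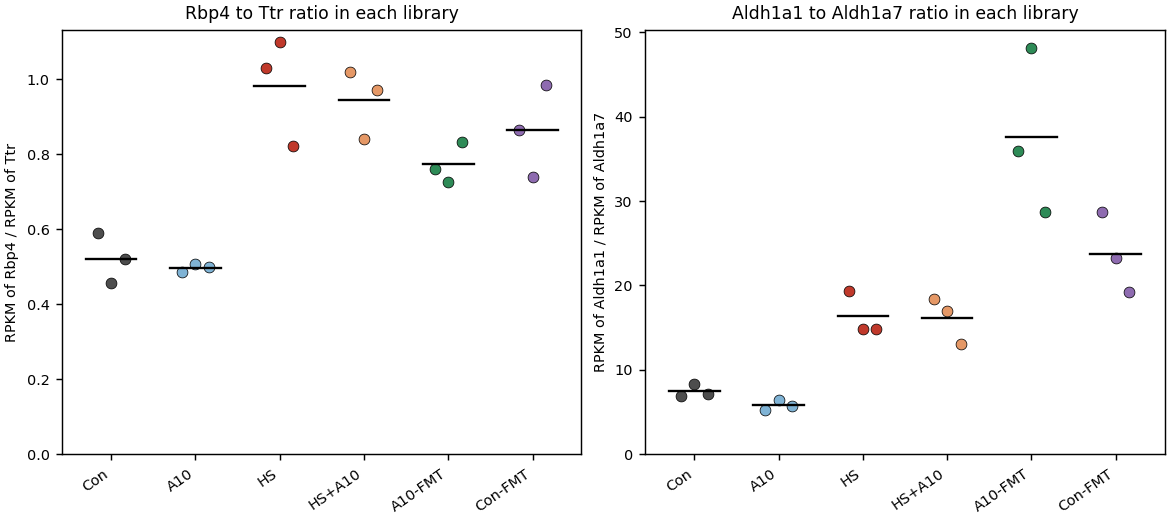
Ratio of RPKM of Rbp4 to Ttr (left) and of Aldh1a1 to Aldh1a7 (right) in each library, by group; points are libraries and bars the means of 3. The Rbp4 to Ttr ratio stays below 0.6 in Con and A10 and above 0.7 elsewhere, and the Aldh1a1 to Aldh1a7 ratio rises from at most 8.36 in Con to 28.7 or more in A10-FMT.

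Lrat, whose product forms retinyl esters for storage and is a marker of stellate cells in liver, was near the lower limit of the tested range. It measured 0.92, 1.52 and 1.32 RPKM in Con and 1.58, 2.12 and 1.83 RPKM in HS. The groups came close without overlapping, and the log2 change of RPKM + 1 was 0.34 ± 0.12 (adjusted p = 0.0664). Under AOS it rose from 1.42, 1.35 and 1.39 RPKM in A10 to 2.22, 3.01 and 3.02 RPKM in HS+A10. Every HS+A10 library was above every other library of the 18, and the log2 change was 0.64 ± 0.12 (adjusted p = 0.00206). In recipients it measured 1.61, 1.68 and 1.17 RPKM (A10-FMT) and 1.4, 1.04 and 1.23 RPKM (Con-FMT). The other stellate cell markers moved as well. Of 12, 7 rose and none fell in HS against Con, where 17.7% of all tested genes passed the test (1618 upwards, 191 downwards). In HS+A10 against A10, 4 of 12 rose, where 20.9% passed it (1388 upwards, 743 downwards). Over all tested genes, upward calls in HS against Con made up 89.4% as deposited and 45% with equal library medians. None of the 12 was called in HS+A10 against HS, although every HS+A10 library had more Lrat than every HS library, and their median log2 change was -0.08. Their summed level was 116.85 to 153.25 RPKM in Con, 145.84 to 176.7 in A10, 216.62 to 281.1 in HS, 215.18 to 222.36 in HS+A10, 152.43 to 191.44 in Con-FMT and 161.28 to 193.99 in A10-FMT, and none of the 12 was at 0 in all libraries of a group. Of 6 markers of liver endothelial cells, 1 was higher in HS than in Con, near the share of all genes. In HS+A10 against A10, 4 of 6 were higher (median log2 change 0.56, against 0.44 for the stellate markers). In HS+A10 against HS, 2 of 6 were higher, where 7.32% of all tested genes were called, and none was lower in any of these. The summed level of the endothelial markers was 49.95 to 56.77 RPKM in Con, 55.42 to 63.21 in A10, 54.69 to 67.83 in HS and 73.7 to 93.7 in HS+A10, and none of the 6 was at 0 in all libraries. The part of either cell type in the change of Lrat was not tested, and in bulk tissue more cells of a type and more RNA per cell cannot be told apart.

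Retsat, which encodes retinol saturase, an enzyme that makes dihydroretinol, had the largest rise of the 9. It measured 69.01, 120.7 and 98.52 RPKM in Con and 391.97, 212 and 143 RPKM in HS. The HS libraries were spread widely, yet all were above Con. The log2 change was 1.28 ± 0.31 (adjusted p = 0.0136), a ratio of means of 2.59. It was called in 24 of 27 alternative settings, the exceptions being those without Con replicate 1 (0.0656), without replicate 3 of both Con and A10 (0.0526) and with only the groups compared (0.0797). Under AOS the rise was from 157, 124 and 137 RPKM in A10 to 490.2, 448 and 502 RPKM in HS+A10, a ratio of means of 3.45. The HS+A10 libraries were the 3 highest of all 18, and the log2 change of 1.78 ± 0.31 (adjusted p = 0.00117) was called in all 27 alternative settings. Recipients stood at 214, 236 and 149 RPKM in A10-FMT and at 143, 113 and 216 RPKM in Con-FMT, within or below the range of HS.

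Rdh11 encodes a retinol dehydrogenase that reduces retinal in many tissues, and it fell in both diet comparisons. It measured 33.85, 58.37 and 48.54 RPKM in Con and 5.01, 20.1 and 21.8 RPKM in HS. No library overlapped, and HS replicate 1 was far below the other two HS libraries. The log2 change was -1.72 ± 0.46 (adjusted p = 0.0211), and without HS replicate 1 it was -1.09 (adjusted p = 0.0683). It was also lost without Con replicate 2 (0.0591) or Con replicate 3 (0.0632), and without replicate 3 of both Con and A10 (0.0828). Under AOS the fall was from 56.69, 51.98 and 54.61 RPKM in A10 to 3.91, 6.06 and 11.68 RPKM in HS+A10. The ratio of means was 0.133 and the log2 change -2.87 ± 0.46 (adjusted p = 0.000704), called in all 27 alternative settings. Recipients had 9.66, 8.34 and 10.28 RPKM in A10-FMT and 12.9, 4.79 and 4.12 RPKM in Con-FMT, below every library of Con and A10. Among the HS libraries, the one with the highest Retsat level had the lowest level of Rdh11 and of Cyp26a1, and the one with the lowest Retsat level the highest of both.

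**Figure D3:**
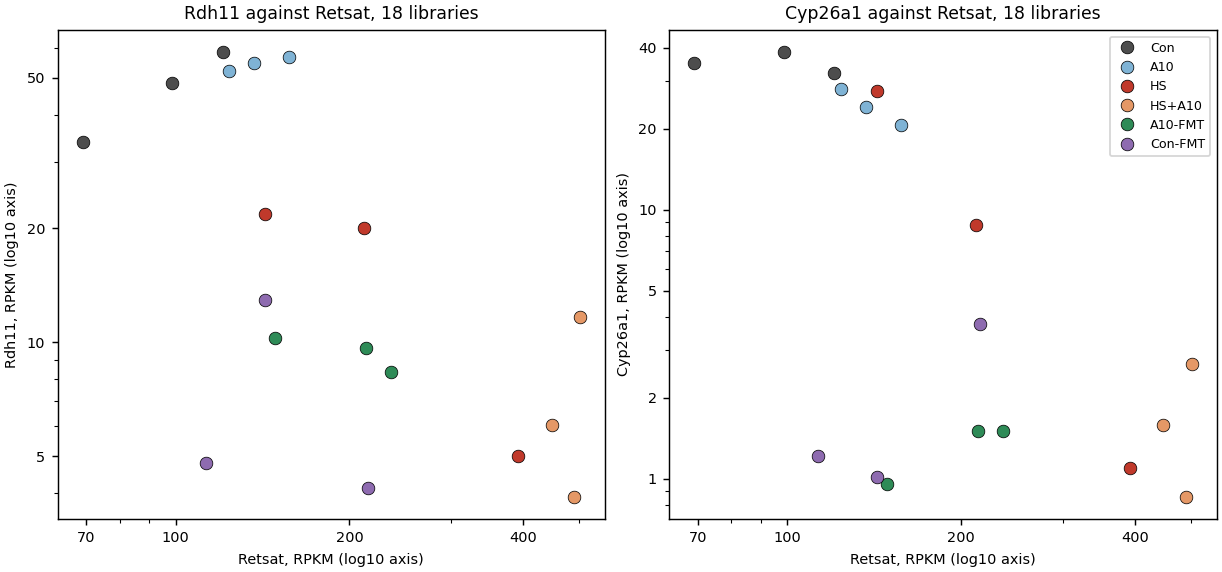
RPKM of Rdh11 (left) and of Cyp26a1 (right) against RPKM of Retsat (log10 axes), 1 point per library, colored by group. The 3 HS libraries run from high Retsat with low Rdh11 and Cyp26a1 (391.97, 5.01 and 1.1 RPKM) to low Retsat with high Rdh11 and Cyp26a1 (143, 21.8 and 27.49 RPKM).

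Dhrs3 encodes a retinal reductase that returns retinal to retinol, and it was the steadiest of the 9 genes. It measured 108, 139 and 131 RPKM in Con and 149, 105 and 129 RPKM in HS, with the HS range enclosing that of Con. The log2 change was 0.01 with a 95% interval of -0.28 to 0.30 (adjusted p = 0.966). In A10 it was at 152, 144 and 139.6 RPKM and in HS+A10 at 131, 147 and 120.4 RPKM (log2 change -0.13, interval -0.42 to 0.16, adjusted p = 0.539). The recipients had 137, 125 and 105 RPKM in A10-FMT and 99.17, 117 and 105 RPKM in Con-FMT. It was called in none of the 8 comparisons, and the intervals of both diet comparisons exclude a change of 0.5 on the log2 scale. Its relative Dhrs9, whose product also acts on retinol, was at or below 0.28 RPKM in all 18 libraries and was not tested. It is named because its protein was measured in liver in the study, as was that of RBP4.

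Aldh1a1 encodes the main cytosolic retinal dehydrogenase of adult liver. It measured 507, 523 and 525 RPKM in Con and 572, 616 and 456 RPKM in HS. These groups overlapped, with a log2 change of 0.07 and an interval of -0.22 to 0.36 (adjusted p = 0.755). Under AOS it rose from 462, 396 and 412 RPKM in A10 to 627, 697 and 654 RPKM in HS+A10. The groups were far apart, the log2 change of 0.64 ± 0.14 (adjusted p = 0.00441) was called in all 27 alternative settings, and the A10 libraries were themselves below all Con libraries. The difference between the diet effects with and without AOS was 0.57 ± 0.19 on the log2 scale (unadjusted p = 0.01), and it did not pass adjustment (adjusted p = 0.233). Recipients had 631, 524 and 409.8 RPKM in A10-FMT and 489, 460.4 and 537 RPKM in Con-FMT.

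Aldh1a7, its rodent paralog, whose product is thought to have little activity on retinal, fell in both diet comparisons. It measured 74.1, 62.58 and 73.11 RPKM in Con and 29.6, 41.45 and 30.76 RPKM in HS. The ratio of means was 0.485 and the log2 change -1.03 ± 0.20 (adjusted p = 0.00469). It was the only one of the 9 genes whose call in HS against Con held in all 27 alternative settings (adjusted p between 0.00184 and 0.0326). Under AOS the fall was from 88.01, 61.12 and 72.01 RPKM in A10 to 34.14, 41.11 and 50.11 RPKM in HS+A10, a log2 change of -0.81 ± 0.20 (adjusted p = 0.0117) that was lost without A10 replicate 1 (0.053) or HS+A10 replicate 1 (0.0605). In recipients it was lower still, at 17.56, 10.89 and 14.3 RPKM in A10-FMT and 17.02, 19.8 and 27.95 RPKM in Con-FMT. Every recipient library was below every HS library. Aldh1a1 was 6.84 to 8.36 times Aldh1a7 in Con and 5.25 to 6.49 times in A10, per length of transcript. The ratio was 14.8 to 19.3 in HS, 13.1 to 18.4 in HS+A10, 19.2 to 28.7 in Con-FMT and 28.7 to 48.1 in A10-FMT. The share of reads that could have been counted for either paralog was not measured.

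Cyp26a1, which encodes the retinoic acid hydroxylase of liver, had the largest change and the largest spread. It measured 34.97, 32.12 and 38.35 RPKM in Con and 1.1, 8.77 and 27.49 RPKM in HS. All HS libraries were below Con, and they spread over most of the range of the 18 libraries. The log2 change was -2.11 ± 0.62 (adjusted p = 0.0307). Without HS replicate 1 it was -1.11 (adjusted p = 0.0753), and the call was lost in 8 of 27 settings, also without HS replicate 2 (0.0603), Con replicate 1 (0.0823), Con replicate 2 (0.0528) or Con replicate 3 (0.0814) and without replicate 3 of both Con and A10 (0.104). Under AOS it fell from 20.63, 28.05 and 24.11 RPKM in A10 to 0.86, 1.59 and 2.68 RPKM in HS+A10, a ratio of means of 0.0705. This change of -3.27 ± 0.62 (adjusted p = 0.00197) was called in all 27 alternative settings. Recipients were as low, with 1.5, 1.5 and 0.96 RPKM in A10-FMT and 1.02, 1.22 and 3.76 RPKM in Con-FMT. HS replicate 3 was the only library with diet and STZ that reached the range of A10.

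**Figure D4:**
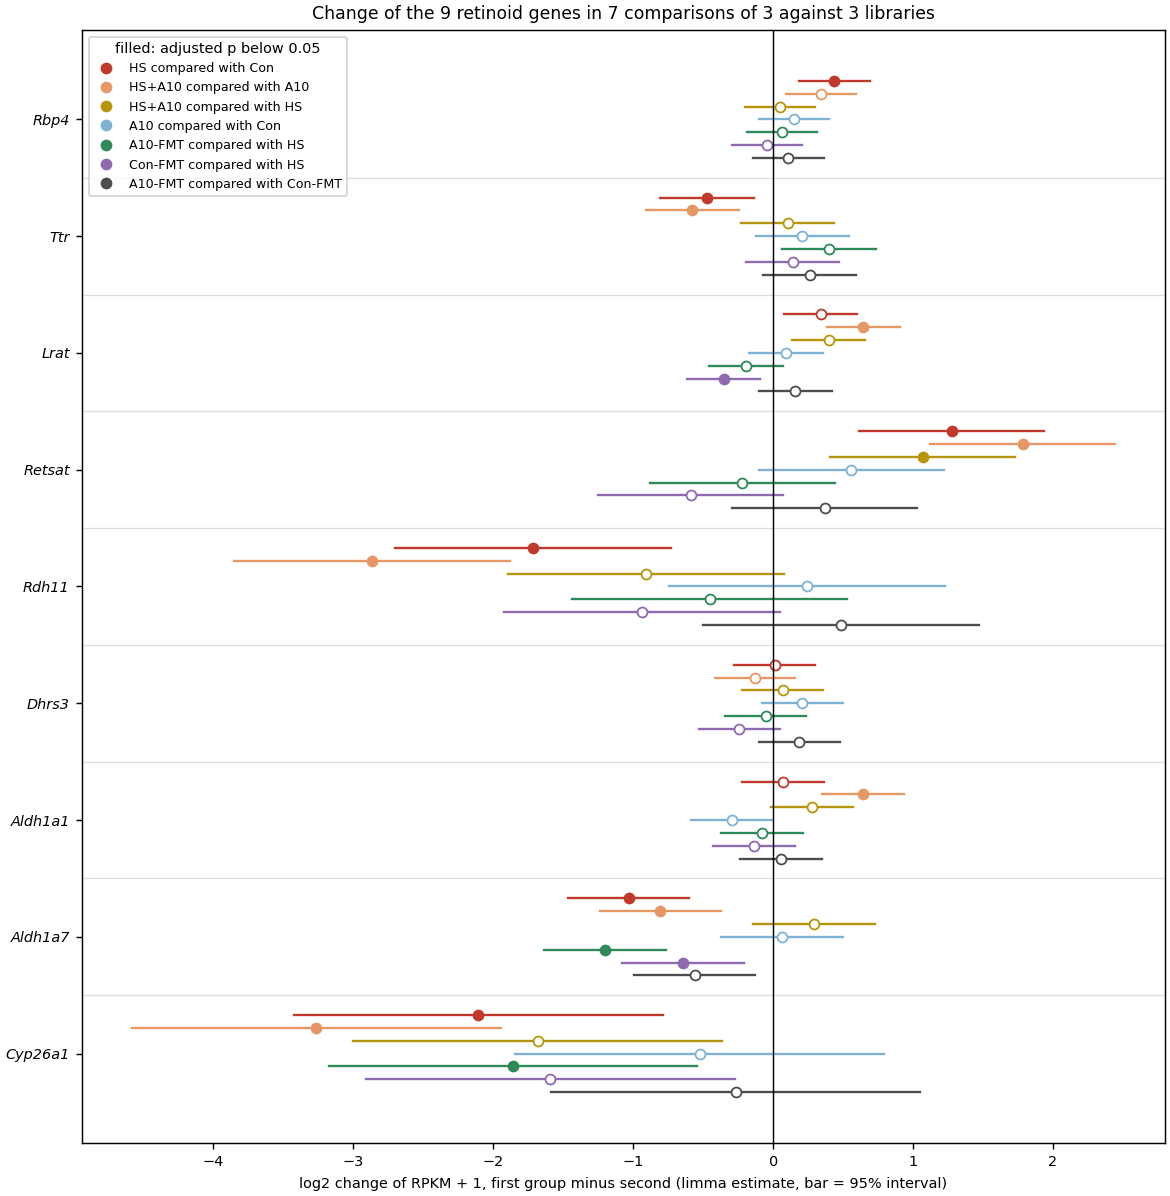
Log2 change of RPKM + 1 of the 9 genes (rows) in 7 comparisons of 3 against 3 libraries, with 95% intervals; filled points passed an adjusted p of 0.05. Retsat lies right of 0 and Rdh11, Aldh1a7 and Cyp26a1 lie left of 0 in both diet comparisons, and no point is filled for AOS alone or for A10-FMT against Con-FMT.

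AOS by itself, A10 against Con, called none of the 9 genes in limma, where 0.0686% of all tested genes were called (7 genes, and 1418 at an unadjusted p under 0.05). Among the 9, Aldh1a1 had the smallest p (log2 change -0.29, adjusted p = 0.357). The libraries of A10 and Con did not overlap for Aldh1a1 and Cyp26a1, which were lower in A10, and for Dhrs3 and Retsat, which were higher. Of all tested genes, 24.8% did not overlap between these groups either (1995 higher and 538 lower in A10). Replicate 3 of each group lay mostly between the other libraries of its group. Without both of these libraries the same 4 genes did not overlap, as did 37.3% of all tested genes. The log2 changes were 0.56 ± 0.31 for Retsat, -0.52 ± 0.62 for Cyp26a1, 0.24 ± 0.46 for Rdh11, 0.21 ± 0.16 for Ttr and 0.21 ± 0.14 for Dhrs3. Those of Rbp4 (0.15), Lrat (0.09) and Aldh1a7 (0.06) were smaller. The difference of the diet effects with and without AOS was called for none of the 9 genes, against 0.00980% of all tested genes (1 gene, and 1320 at an unadjusted p under 0.05). Besides Aldh1a1 (0.57), this difference was -1.16 for Cyp26a1, -1.15 for Rdh11, 0.51 for Retsat, 0.30 for Lrat and 0.23 for Aldh1a7, and for Dhrs3 (-0.14), Ttr (-0.11) and Rbp4 (-0.09) it was nearer to 0.

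AOS on top of diet and STZ, HS+A10 against HS, raised Retsat, with 7.32% of all tested genes called. Its log2 change of 1.07 ± 0.31 (adjusted p = 0.0495) was at the threshold and was lost in 18 of 27 alternative settings, with adjusted p between 0.00475 and 0.202 over all of them. Among these were the settings without HS replicate 2 (0.142), HS replicate 3 (0.202), HS+A10 replicate 1 (0.146), HS+A10 replicate 2 (0.0932) or HS+A10 replicate 3 (0.103), and the others ranged from 0.0501 to 0.147. Lrat was higher in every HS+A10 library than in every HS library, with a log2 change of 0.40 ± 0.12 (adjusted p = 0.0619), and it was called with equal library medians (0.0284), with quantile normalization (0.0228) and without Con replicate 1 (0.0483). Cyp26a1 had a log2 change of -1.68 ± 0.62 (adjusted p = 0.108) and Rdh11 one of -0.91 ± 0.46 (adjusted p = 0.24). Without HS replicate 1, whose levels of both were like those of HS+A10, the changes were -2.68 (adjusted p = 0.00161) and -1.53 (adjusted p = 0.0207). Aldh1a1 was higher in every HS+A10 library than in every HS library, by 0.28 ± 0.14 (adjusted p = 0.227). The changes of Aldh1a7 (0.29), Ttr (0.10), Dhrs3 (0.07) and Rbp4 (0.05) were not called, and the libraries of the groups overlapped.

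Both transplants were compared with HS, and since these comparisons share the HS libraries their values are set side by side. Against HS, 2 of the 9 genes fell after A10-FMT (23.1% of all tested genes called) and 2 after Con-FMT (23.6%), and none rose. Aldh1a7 fell in both, with a log2 change of -1.20 ± 0.20 (adjusted p = 0.00162) in A10-FMT and of -0.64 ± 0.20 (adjusted p = 0.033) in Con-FMT. The first was called in all 27 alternative settings. The second was lost in 8 of 28, among them the settings without HS replicate 2 (0.131), Con-FMT replicate 1 (0.129) or Con-FMT replicate 2 (0.0925), while without the library with pancreatic markers it was -0.84 (adjusted p = 0.0111). Cyp26a1 changed by -1.86 ± 0.62 (adjusted p = 0.0419) in A10-FMT and by -1.59 ± 0.62 (adjusted p = 0.0748) in Con-FMT. The A10-FMT and HS libraries overlapped, because HS replicate 1 (1.1 RPKM) was as low as the recipients. The change in A10-FMT was no longer called in 17 of 27 settings, and without HS replicate 3 it was -0.97 (adjusted p = 0.179). Without Con-FMT replicate 3 the change in Con-FMT was -1.98 (adjusted p = 0.0491).

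Lrat fell in Con-FMT by 0.35 ± 0.12 on the log2 scale (adjusted p = 0.0488), and its change in A10-FMT was -0.20 ± 0.12 (adjusted p = 0.252). The call in Con-FMT was lost in 20 of 27 settings, with adjusted p between 0.0352 and 0.304 over all of them, and without Con-FMT replicate 3 the adjusted p was 0.0766. In the same comparison 5 of 12 stellate cell markers were lower and none higher, where 23.6% of all tested genes were called (470 higher and 1943 lower). The part of stellate cells in the fall of Lrat was not tested. Ttr was higher in every A10-FMT library than in every HS library, with a log2 change of 0.40 ± 0.16 (adjusted p = 0.0759), and it was called with equal library medians (log2 change 0.59, adjusted p = 0.0193) and without Con replicate 1 (0.0364) or Con replicate 2 (0.0444). In Con-FMT against HS the log2 change of Ttr was 0.14 ± 0.16 (adjusted p = 0.557), and the libraries overlapped. The changes of Rbp4, Aldh1a1 and Dhrs3 were between -0.24 and 0.06 and none passed the test in either transplant group. Retsat differed from HS by -0.22 ± 0.31 (adjusted p = 0.625) after A10-FMT and by -0.59 ± 0.31 (adjusted p = 0.186) after Con-FMT, and the latter was called without HS replicate 3 (-0.92, adjusted p = 0.0434). Rdh11 differed by -0.45 ± 0.46 (adjusted p = 0.485) and by -0.94 ± 0.46 (adjusted p = 0.158), and the latter was called without HS replicate 1 (-1.56, adjusted p = 0.0133) or Con-FMT replicate 1 (-1.39, adjusted p = 0.049).

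The transplants were also compared with each other. Of the 9 genes none was called in A10-FMT against Con-FMT, where 18.8% of all tested genes were called, and the libraries of these groups overlapped for all 9, while 31.5% of all tested genes did not overlap. Without Con-FMT replicate 3 Retsat was the one of the 9 that did not overlap (42.5% of all tested genes). Aldh1a7 came nearest to the threshold, with a log2 change of -0.56 ± 0.20 (adjusted p = 0.0677). Without A10-FMT replicate 1 (0.0411) or Con-FMT replicate 1 (0.0431) it was called, and without Con-FMT replicate 3 it was -0.37 (adjusted p = 0.247). Rbp4 differed by 0.11 with an interval of -0.14 to 0.36, and Aldh1a1 by 0.05 with an interval of -0.24 to 0.35. For Cyp26a1 the interval was -1.58 to 1.05, which includes a change of 1 log2 unit in either direction. The differences were 0.48 ± 0.46 for Rdh11, 0.37 ± 0.31 for Retsat, 0.26 ± 0.16 for Ttr, 0.19 ± 0.14 for Dhrs3 and 0.16 ± 0.12 for Lrat.

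Beyond the 9 genes, 69 genes of the retinoid pathway were taken in 7 lists by role, of which 68 were in the table and 49 were tested. In HS against Con, 10 rose and 5 fell, where 17.7% of all tested genes passed the test (1618 upwards, 191 downwards). Under AOS, 12 rose and 6 fell in HS+A10 against A10, where 20.9% passed it (1388 upwards, 743 downwards). With equal library medians the counts of pathway genes were 4 and 6 in the first comparison, where 884 of all tested genes were called (398 higher and 486 lower). They were 12 and 8 in the second, where 2394 were called (1243 higher and 1151 lower). Without replicate 3 of both Con and A10, 6 of the 15 calls in HS against Con held (Scarb1, Rdh16, Rdh9, Aldh1b1, Rxra and Ces1e), and 13 of the 18 in HS+A10 against A10, those of Lrp1, Lpl, Aadac, Rarg and Ncor1 being lost. Without Con replicate 3 alone, 8 of the 15 held, Lrp1 and Ces1d besides those 6, and without A10 replicate 3 alone, 13 of the 18. Over all tested genes, 6.83% and 11.4% were called in these comparisons without both libraries. The shares were 9.14% in HS against Con without Con replicate 3 and 13.4% in HS+A10 against A10 without A10 replicate 3. Of 5 tested binding and uptake proteins, Scarb1, a lipoprotein and carotenoid receptor, rose by 0.97 (adjusted p = 0.0007) and 0.74 (adjusted p = 0.00195), while Fabp5, a fatty acid-binding protein that also carries retinoic acid, fell by 1.53 (adjusted p = 0.0456) and 2.11 (adjusted p = 0.00772). Lrp1, an uptake receptor for lipoprotein remnants, rose by 0.39 (adjusted p = 0.0204) and 0.37 (adjusted p = 0.0218). Stra6l, a receptor for RBP4 in liver, fell by 0.46 in HS+A10 against A10 (adjusted p = 0.00922) and was lower in HS+A10 than in HS by 0.42 (adjusted p = 0.0387) and in A10-FMT than in HS by 0.61 (adjusted p = 0.00239). Its change in HS against Con was -0.17 (adjusted p = 0.302), and the difference between the comparisons was not called for any of the 49.

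Other dehydrogenases of retinol and retinal were called in the direction opposite to Rdh11. Of 13 tested dehydrogenases and reductases, 5 rose and none fell in HS, and 4 rose and none fell in HS+A10 against A10. Rdh16 rose by 1.26 (adjusted p = 0.00364) and 1.39 (adjusted p = 0.00107) and Rdh9 by 1.04 (adjusted p = 0.00799) and 1.48 (adjusted p = 0.000487). Both were also higher in HS+A10 than in HS, by 0.89 (adjusted p = 0.0364) and 0.95 (adjusted p = 0.0236). Dhrs4 rose by 0.54 (adjusted p = 0.019) and 0.75 (adjusted p = 0.00195) and was 0.49 higher in HS+A10 than in HS (adjusted p = 0.0478). Adh4 rose by 0.59 (adjusted p = 0.0328) and 0.74 (adjusted p = 0.00808), and Rdh14 by 0.31 in HS (adjusted p = 0.042). The calls of Dhrs4 (adjusted p = 0.051), Adh4 (0.0726) and Rdh14 (0.125) in HS against Con were lost without Con replicate 3. In HS against Con with equal library medians 2 of the 13 rose, Rdh16 and Rdh9, and 1 fell, Adh7, an alcohol dehydrogenase that is named there after its value was seen. Adh7 and Rdh9 were higher in A10-FMT than in HS, by 0.55 (adjusted p = 0.0128) and 0.67 (adjusted p = 0.0467), and than in Con-FMT, by 0.46 (adjusted p = 0.0334) and 0.69 (adjusted p = 0.0469). The call of Rdh9 in A10-FMT against Con-FMT was lost without Con-FMT replicate 3 (adjusted p = 0.178). Rdh9 and Rdh16 belong to a cluster of close paralogs, and reads could have been split between its members. Among 4 enzymes of retinal oxidation beside the 9, Aldh1b1 rose by 0.91 (adjusted p = 0.00484) and 0.86 (adjusted p = 0.004).

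Among 11 tested genes of esterification and ester hydrolysis, 4 fell and 1 rose in HS, where 17.7% of all tested genes were called (1618 higher and 191 lower). Ces1d fell by 1.29 (adjusted p = 0.0131), Ces1e by 1.19 (adjusted p = 0.0087), Ces1c by 0.58 (adjusted p = 0.0336) and Aadac by 0.33 (adjusted p = 0.0476). The gene that rose was Pnpla2, a lipase of fat droplets, by 0.45 (adjusted p = 0.0281). Ces1c (adjusted p = 0.0813), Aadac (0.127) and Pnpla2 (0.0627) were no longer called in HS against Con without Con replicate 3. Ces1d was lost too (0.0592) without replicate 3 of both Con and A10. Pnpla2 rose in HS+A10 against A10 too, by 0.71 (adjusted p = 0.00152), and Lipe, hormone-sensitive lipase, by 0.76 (adjusted p = 0.00593), while Ces2a fell by 2.63 (adjusted p = 0.0104), Ces1c by 0.98 (adjusted p = 0.00126), Lpl, lipoprotein lipase, by 0.66 (adjusted p = 0.0142) and Aadac by 0.38 (adjusted p = 0.0225). The calls of Lpl (adjusted p = 0.0562) and Aadac (0.0552) in HS+A10 against A10 were lost without A10 replicate 3. HS+A10 had more Pnpla2 (0.52, adjusted p = 0.0253) and Ces1e (0.96, adjusted p = 0.0432) than HS. Over all 7 lists, 5 genes were higher in HS+A10 than in HS and 1 lower, where 7.32% of all tested genes were called. Carboxylesterases of the Ces1 group, some of which hydrolyse retinyl esters, are paralogs as well. In A10-FMT, Ces1d was 0.95 (adjusted p = 0.04), Ces1e 0.98 (adjusted p = 0.0174), Ces1c 0.60 (adjusted p = 0.0228) and Aadac 0.44 (adjusted p = 0.0116) above HS on the log2 scale. None of the 4 was called in Con-FMT against HS as deposited, where Ces1e was 0.64 (adjusted p = 0.0953) and Aadac 0.31 (adjusted p = 0.0528) above HS. With equal library medians both were called there too, Ces1e at 0.75 (adjusted p = 0.0424) and Aadac at 0.42 (adjusted p = 0.00507), and with quantile normalization Aadac was (adjusted p = 0.0199). In the direct comparison of the transplants, Ces1d was the one called of these 4, with a difference of 1.14 (adjusted p = 0.0197), and Aadac was called too with quantile normalization (0.29, adjusted p = 0.0176).

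Calls among the receptor genes were most frequent in Con-FMT against HS. Of 10 tested receptors and cofactors, 1 rose in HS, where 17.7% of all tested genes were called (Rxra, 0.35, adjusted p = 0.00521, and 0.17, adjusted p = 0.154, with equal library medians). In HS+A10 against A10, where 20.9% were called, 3 rose (Rxra by 0.35, adjusted p = 0.00307, Rarg by 0.39, adjusted p = 0.0158, and Ncor1 by 0.31, adjusted p = 0.0368). Rarg and Ncor1 were no longer called there without A10 replicate 3 (adjusted p = 0.0717 for each). In Con-FMT against HS 6 fell, where 23.6% of all tested genes were called (470 higher and 1943 lower). Rxrg, a retinoid X receptor, measured 5.81, 3.65 and 3.33 RPKM in HS and 1.34, 1.93 and 1.02 RPKM in Con-FMT, a fall of 1.10 on the log2 scale (adjusted p = 0.00127). Rarb, which like Cyp26a1 is a known target of retinoic acid, measured 1.31, 1.87 and 2.32 RPKM in HS and 0.69, 0.53 and 0.6 RPKM in Con-FMT, a fall of 0.80 (adjusted p = 0.00204). The groups did not overlap for either. Rara fell by 0.53 (adjusted p = 0.02), Rarg by 0.46 (adjusted p = 0.00555), Nrip1, a corepressor, by 0.42 (adjusted p = 0.039) and Ncor1 by 0.29 (adjusted p = 0.0444). Without Con-FMT replicate 3, Ncor1 was no longer called (0.082) and the other 5 were, with Rxrg at -0.98 (adjusted p = 0.00589) and Rarb at -0.80 (adjusted p = 0.00548). With equal library medians 4 of the 6 fell, and with quantile normalization 2 did, Rxrg and Rarb. Over all tested genes, 2098 and 1853 were called in these settings, against 2413 as deposited. In A10-FMT against HS, where 23.1% of all tested genes were called (213 higher and 2145 lower), Rarg fell by 0.50 (adjusted p = 0.00452). Ncor1 fell there by 0.33 (adjusted p = 0.026, and 0.231 with equal library medians). Set against each other, A10-FMT had more Rara (0.58, adjusted p = 0.0148) and Rxrg (0.72, adjusted p = 0.0183) than Con-FMT and less Rxrb (-0.27, adjusted p = 0.0283). Without Con-FMT replicate 3, Rara was still called (0.017), and Rxrg (0.0714) and Rxrb (0.0866) were not. Rxrb was not called with equal library medians either (0.107).

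Over all 7 lists, 6 genes rose and 5 fell in A10-FMT against HS, or 22.4% of 49, where 23.1% of all tested genes were called (213 higher and 2145 lower). None rose and 10 fell in Con-FMT against HS, or 20.4% of 49, where 23.6% were called (470 higher and 1943 lower). With equal library medians the pathway counts were 9 and 4 in A10-FMT, where 1155 of all tested genes were called (639 higher and 516 lower). They were 4 and 6 in Con-FMT, where 2098 were called (858 higher and 1240 lower). Without Con-FMT replicate 3, 8 of the 10 in Con-FMT against HS held, those of Adh1 and Ncor1 being lost. Then 4 others were called (Fabp5 higher, and Lrp1, Rdh10 and Cyp3a11 lower, named after their values were seen), with 22.3% of all tested genes. Cyp3a11, which can hydroxylate retinoic acid, fell by 1.55 in A10-FMT (adjusted p = 0.0105), and Lpl, which frees retinol from lipoprotein esters, fell by 1.06 (adjusted p = 0.00128) there and by 0.69 (adjusted p = 0.0106) in Con-FMT. Markers of Kupffer cells, the macrophages of liver, were lower in A10-FMT as well, 4 of 6 being called lower than in HS and none higher (median log2 change -0.69, and 1 of 6 called with equal library medians). Their summed level was 38.7 to 47.98 RPKM in A10-FMT, 57.01 to 99.89 in HS and 44.92 to 86.88 in Con-FMT, and none of the 6 was at 0 in all libraries. Of the endothelial markers, 2 of 6 were lower in A10-FMT than in HS and none higher. The part of these cells in the changes was not tested. Aldh8a1, of the retinal oxidation list, fell by 0.39 in Con-FMT (adjusted p = 0.0131), Adh1, an alcohol dehydrogenase, by 0.40 (adjusted p = 0.0325) and Lipe by 0.51 (adjusted p = 0.0442). A10-FMT against Con-FMT gave 9 higher and 1 lower, where 18.8% of all tested genes were called (686 higher and 1228 lower), among them Bco2, a carotenoid-cleaving enzyme, 0.98 higher (adjusted p = 0.0183), Dhrs7, 0.76 higher (adjusted p = 0.00613), Adh1, 0.44 higher (adjusted p = 0.0243), and Aldh8a1, 0.35 higher (adjusted p = 0.0281). Without Con-FMT replicate 3, 5 of these 10 calls held (Dhrs7, Ces1d, Rara, Adh7 and Aldh8a1). Then 4 other genes were called (Lipe and Rdh10 higher, Stra6l and Fabp5 lower), with 16.1% of all tested genes. None of the 49 was called for AOS alone.

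**Figure D5:**
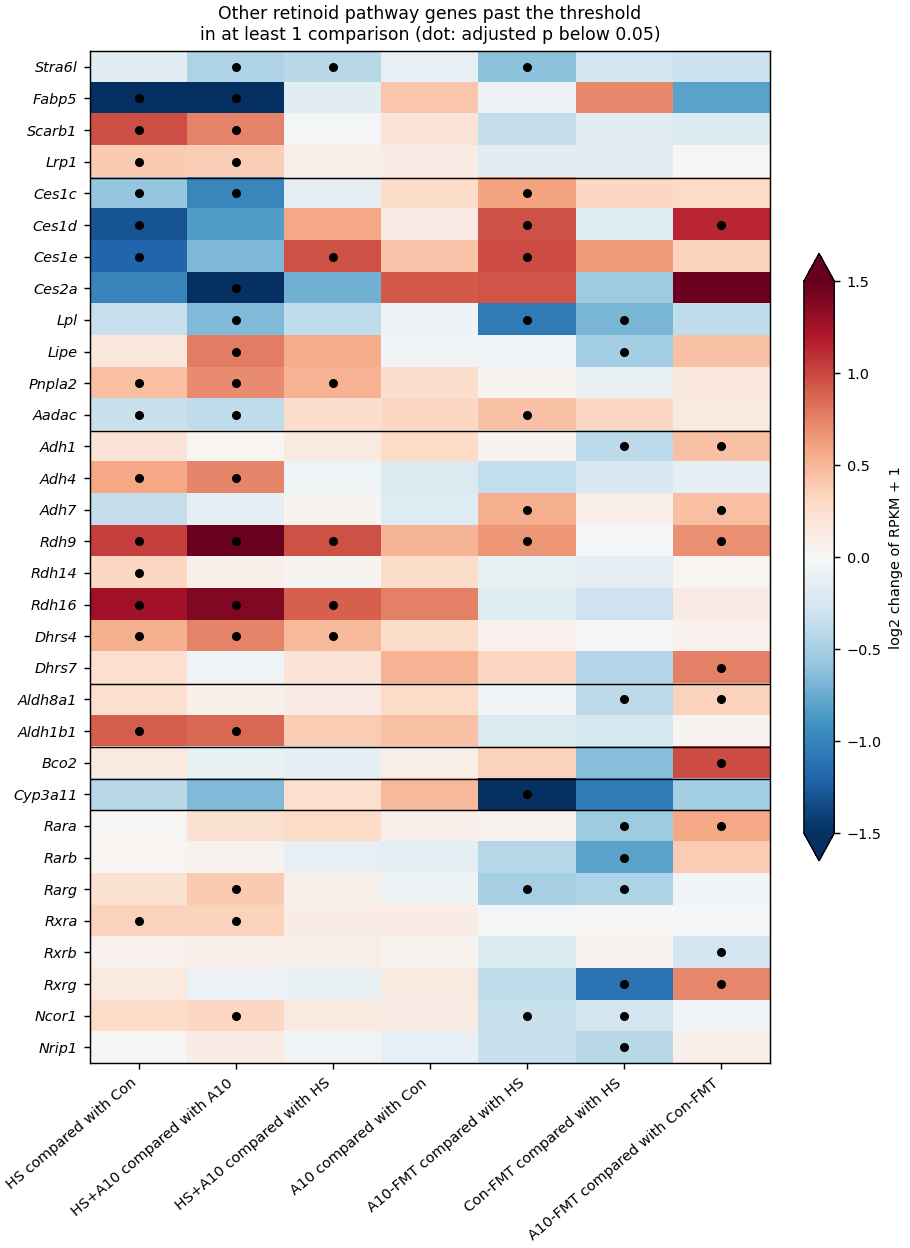
Log2 change of RPKM + 1 (color, saturated at 1.5 in either direction) of the 32 further pathway genes called in at least 1 of 7 comparisons, ordered by list; dots mark an adjusted p under 0.05. Rdh9, Rdh16, Dhrs4 and Aldh1b1 are red with dots in both diet comparisons, and 6 receptors and cofactors carry dots in blue in Con-FMT against HS.

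Genes with the most similar pattern were found by Pearson's r of log2(RPKM + 1) over the 18 libraries, which share groups and are not independent. Rdh11 had the closest neighbours, Pmvk (r = 0.994), Tm7sf2 (0.985) and Dhcr7 (0.982). Retsat was closest to Aldh3a2 (0.971), Slc25a20 (0.971) and Pex11a (0.970), and Cyp26a1 to Cyb5b (0.943), Gm2a (0.940) and Acacb (0.938). By ranks (Spearman's rho) the neighbours of Cyp26a1 were less close, at 0.8343, 0.7362 and 0.7166, while those of Rdh11 were at 0.9856, 0.9525 and 0.967. Lrat was closest to Fkbp9 (0.920), Ttr to Pemt (0.910), Rbp4 to Mfsd2a (0.908), Aldh1a7 to Hsd17b12 (0.904), Dhrs3 to Ing2 (0.880) and Aldh1a1 to Wdr73 (0.877).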

How the data were processed

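Liver RNA was sequenced in 18 libraries of 6 groups. The authors deposited RPKM values with 2 decimals, computed from reads mapped to genes. The submitters' processing notes name Bowtie 0.12.2 and mm10, and the paper names another aligner. Whether counting used strand is not given in the sources used here. RPKM was used as deposited, transformed to log2(RPKM + 1), and genes averaging 1 RPKM or more over 18 libraries were tested in limma 3.58.1 (R 4.3.3), with 1 mean per group, a variance trend, and two-sided p-values adjusted by the Benjamini-Hochberg method over 10204 genes. Fold changes on this scale understate those of low genes. The test was checked on simulated data with values independent between libraries. That check does not cover libraries lying between others of their group or a shift of most genes. Positions came from GENCODE for GRCm38, promoters from RefSeq, and the paralogs were aligned with Biopython 1.88 (Python 3.11.15). All 9 genes were named in every comparison, and of the pathway lists the called genes with the smallest adjusted p, up to 5 per list and comparison. Aadac in HS+A10 against A10, Ncor1 in Con-FMT against HS and genes called only under an alternative were added after their values were seen. Genes and lists were chosen with earlier results of these data known. Alternatives changed the pseudocount (0.1), the filter (none, or 5 RPKM), the scaling (equal medians, quantile), the samples fitted, the variance trend and the replicate block, and left out each library. Leaving out replicate 3 of both Con and A10, or scaling by medians without Con-FMT replicate 3, was chosen after seeing the data. Replicate numbers were not used to pair libraries in the main fit.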

Additional observations from a re-analysis of the deposited data

How the results depend on the processing

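Of the 1954 values of the 9 genes recomputed in 8 comparisons, 1777 kept their direction and side of the threshold, 115 lost a call, 25 gained one and 37 reversed, all of the last without a call. None of the 9 was called for AOS alone or for the difference of diet effects in any setting. Depth in reads is unknown, and 3 libraries per group leave wide intervals for Cyp26a1 and Rdh11. The cause of the changes below was not tested, except that fits without libraries or on the compared groups alone rest on fewer samples.

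In HS against Con, 6 called genes became 3 with no filter on low values, 1 with replicate 3 of both Con and A10 left out, 1 with only the groups compared and 2 to 6 with 1 library left out (2 without Con replicate 3 or HS replicate 1). In HS+A10 against HS, 1 became 0 with a pseudocount of 0.1, no filter, the replicate block, both replicates 3 left out or only the groups compared, 2 with quantile normalization or median scaling, and 0 to 3 with 1 library left out. In A10-FMT against HS, 2 became 1 with no filter, quantile normalization, both replicates 3 left out or only the groups compared, and 1 to 2 with 1 library left out. In Con-FMT against HS, 2 became 0 with no filter, quantile normalization, median scaling, both replicates 3 left out or only the groups compared, 1 with a filter of 5 RPKM or with median scaling without Con-FMT replicate 3, and 0 to 4 with 1 library left out. In A10-FMT against Con-FMT, 0 became 0 to 1 with 1 library left out.

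Over all genes, the 1809 called in HS against Con became 876 (quantile), 884 (median scaling), 697 (both replicates 3 left out), 566 (only the groups compared) and 845 to 1969 (1 library left out). In HS+A10 against A10, 2131 became 1159 with both replicates 3 left out and 1324 to 2232. For the difference of diet effects, 1 became 4 (pseudocount 0.1), 2 (no filter), 2 (5 RPKM), 0 (both replicates 3 left out), 4 (only the groups compared) and 0 to 118. In A10 against Con, 7 became 18 (no filter), 0 (both replicates 3 left out), 38 (only the groups compared) and 0 to 73. In HS+A10 against HS, 747 became 351 (both replicates 3 left out), 57 (only the groups compared) and 159 to 1239. In A10-FMT against HS, 2358 became 1114 (quantile), 1155 (median scaling), 814 (only the groups compared) and 1295 to 2584. In Con-FMT against HS, 2413 became 1307 (5 RPKM) and 798 (only the groups compared). In A10-FMT against Con-FMT, 1914 became 1229 (5 RPKM), 685 (only the groups compared) and 1176 to 2012.

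Signs of log2 changes that turned, none of them called, were as follows. In HS against Con, Aldh1a1 came to -0.0099 (quantile) and -0.12 (median scaling), and Dhrs3 to -0.12 and -0.17. In the difference of diet effects, median scaling gave 0.031 for Rbp4 and 0.021 for Ttr. In A10 against Con, Aldh1a7 came to -0.038 (quantile) and -0.017 (median scaling). In A10-FMT against HS, Rbp4 came to -0.15 (quantile), Aldh1a1 to 0.027 and 0.11, and Dhrs3 to 0.053 and 0.14. In Con-FMT against HS, Rbp4 came to 0.068 with median scaling, and to 0.13 without Con-FMT replicate 3 as well, which gave 0.15 for Cyp26a1 in A10-FMT against Con-FMT. With 1 library left out, ranges that crossed 0 were, in HS against Con, -0.022 to 0.20 for Aldh1a1 and -0.11 to 0.15 for Dhrs3. In A10 against Con they were -0.071 to 0.19 for Aldh1a7 and -0.019 to 0.18 for Lrat. In HS+A10 against HS they were -0.067 to 0.19 for Dhrs3 and -0.084 to 0.14 for Rbp4, and in the difference of diet effects -0.28 to 0.079 for Ttr. In A10-FMT against HS they were -0.23 to 0.080 for Aldh1a1, -0.19 to 0.064 for Dhrs3, -0.073 to 0.15 for Rbp4 and -0.56 to 0.17 for Retsat. In Con-FMT against HS the range was -0.18 to 0.037 for Rbp4, and in A10-FMT against Con-FMT it was -0.094 to 0.22 for Aldh1a1 and -0.50 to 0.12 for Cyp26a1.

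Replicate numbers showed no pairing of libraries throughout, but deviations from means of 3 libraries cannot exclude one. Over 21 pairs, deviations of same-numbered libraries correlated between -0.0932 and 0.262, in 0 of 7 comparisons were all pairs over 0.1, and 8 of 21 libraries correlated best with their own number. In HS+A10 against HS, the values were 0.227, -0.0258 and 0.262 for replicates 1, 2 and 3. With the replicate block, Retsat in HS+A10 against HS (adjusted p = 0.0662) and Lrat in Con-FMT against HS (0.0545) were no longer called, while Cyp26a1 in Con-FMT against HS (0.0488) and Rbp4 in HS+A10 against A10 (0.0491) were.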
